A study of Drosophila melanogaster with 3 samples.

Results

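Of the 3586 reproducible binding peaks of the zinc finger protein Schnurri (Shn) in fly embryos, 362 (10.1%) had their summit within 1 kb downstream of a transcription start of a single gene. A peak was counted here when its summit lay within 1 kb of a transcription start site (TSS) of exactly 1 protein-coding gene, over all annotated transcripts, and 1 bp or more downstream of the nearest TSS of that gene. Within the reproducible list signal strength played no part in this choice, but that list holds the 3586 peaks of highest signal in the authors' pooled list, so every member is a strong peak of that list. By the same distances, 959 peaks lay upstream of the TSS of a single gene, 4 had their summit on it, 1011 lay within 1 kb of 2 or more genes, and 1250 were farther from any TSS. The 362 peaks belonged to 338 genes, which is 2.42% of the 13945 protein-coding genes, and the upstream peaks belonged to 845 genes (6.06%).

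Schnurri binding was mapped by chromatin immunoprecipitation and sequencing (ChIP-seq) in whole Drosophila melanogaster embryos of both sexes, collected from 0 to 24 h of age. All embryos came from 1 transgenic line in which Schnurri carries GFP at its C-terminal end, and an antibody against GFP was used on chromatin sonicated to 200 to 800 bp. The 3 biological replicates form 1 group, and no untagged or treated group is compared with them; a control that the authors used in calling peaks was not analysed here. The labels name an insertion for shn and do not state whether the untagged gene was also present. The mixed ages and tissues mean that fewer cells with binding and weaker binding per cell cannot be told apart.

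Schnurri relays BMP signals in the nucleus. When the ligand Dpp activates its receptors, the Smads Mad and Medea enter the nucleus, and Schnurri joins them on a silencer element to repress genes such as brk. The stretch just downstream of a TSS holds the 5' untranslated region and often the first intron. In flies this stretch carries core promoter elements such as the initiator at the TSS, is the place where RNA polymerase II pauses soon after starting, and, in first introns, often contains enhancers. A ChIP summit marks where fragments pile up most, so a summit a short way inside a gene can also come from a protein bound at the TSS or just before it.

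The sequences below show what lies under the strongest of these summits and at the motifs discussed later. Each is 30 bases of the Release 6 genome (dm6) read 5' to 3' on the strand of the gene. Capitals mark the motif named beside the sequence, and the 4 sequences with no capitals hold none of the 15 motifs searched. The first set is centred on the summits of members among the 12 of highest signal, because these sites had the most binding by the authors' measure: CG9663 on the minus strand at chr2L:3302154-3302183, mub on the plus strand at chr3L:21880477-21880506, Raf on the plus strand at chrX:2296327-2296356, CG4497 on the minus strand at chr2L:7194566-7194595, and Ets21C on the minus strand at chr2L:552726-552755, where capitals mark the AP-1 site TGANTCA.
CG9663: tactatgcccgcatgtcttcagatacacaa
mub: ggcgcaagcattgtgctcccatttccttaa
Raf: ttacctggcaaacgtgttaatccacaggta
CG4497: tggagaaaaatcaagtgatctctatcattg
Ets21C: caatggacgggTGACTCAtacggactaggc
The second set shows promoter elements beside summits close to the TSS: the DRE (TATCGATA, bound by DREF) at Atxn7 on the plus strand at chr2L:2375814-2375843, the M1BP core (GGTCACACT or its reverse complement) at indra on the minus strand at chr3L:1342385-1342414 and at RpL27A on the minus strand at chr2L:4458330-4458359, the pause button form CGGACG beside the summit of CG33695 on the plus strand at chr2L:11278044-11278073, and the silencer element at bun on the minus strand at chr2L:12461233-12461262.
Atxn7: acctgtgcgacTATCGATAacatatcgcac
indra: taatgtaacttAGTGTGACCggaatgcgca
RpL27A: cgccgccgggcGGTCACACTgctacaaccg
CG33695: gttgaatagctgCGGACGcaaaactacgta
bun: ttgcaagCAGACGTTCAGTCGCCagtacaa

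Downstream summits were fewer than upstream ones close to the TSS and more frequent only beyond 700 bp. Downstream peaks made up 27.4% of the 1321 single-gene promoter peaks on either side (Wilson 95% interval 25.1 to 29.9, counting error over peaks only, which are not replicates). In the genome, 55.3% of the positions within 1 kb of the TSSs of a single gene lie downstream. Within 100 bp of the TSS there were 117 downstream and 273 upstream summits, a downstream share of 30% (25.7 to 34.7) against 50.4% of positions. Between 100 and 500 bp there were 100 and 526, a share of 16.0% (13.3 to 19.1) against 52.8% of positions. From 501 to 1000 bp there were 145 and 160, a share of 47.5% (42.0 to 53.1) against 58.5% of positions.

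**Figure D1:**
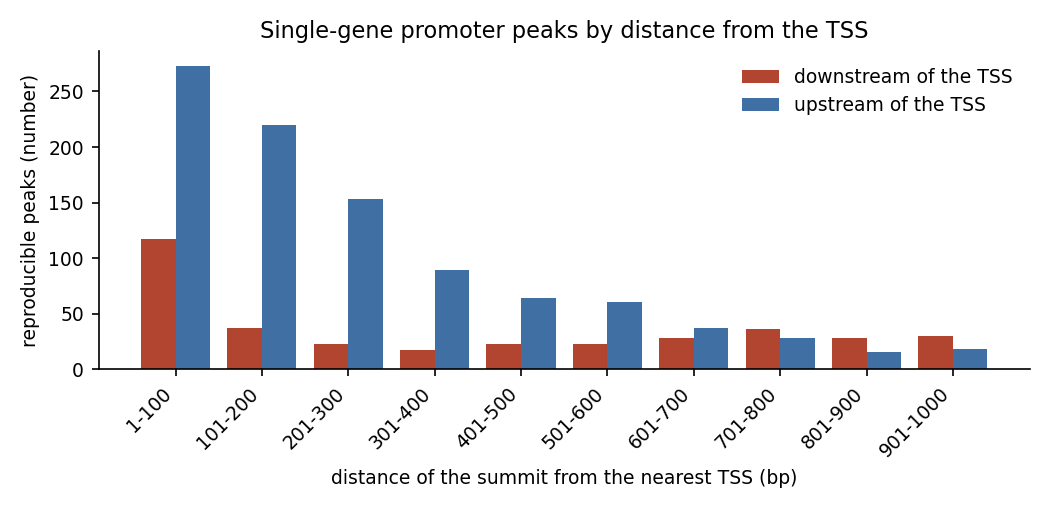
Number of reproducible single-gene promoter peaks (vertical axis) by the distance of their summit from the nearest TSS in bp (horizontal axis), with downstream peaks in red and upstream peaks in blue. Downstream counts are 117 in the first 100 bp and lowest, 17, at 301 to 400 bp, whereas upstream counts decline from 273 to 16 at 801 to 900 bp.

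Downstream summits were most frequent at the TSS itself and spread fairly evenly over the rest of the window. Of the 362, 79 lay within 50 bp of the TSS. Beyond 100 bp the count per 100 bp ranged between 17, at 301 to 400 bp, and 37, at 101 to 200 bp, and was 36 at 701 to 800 bp, where 28 upstream summits lay. The median distance was 342 bp downstream and 195 bp upstream. At the inner limit of the rule, the summits nearest to the TSS were at CG32767 (1 bp, rank 2441 of the 3586 by signal), CG9399 (2 bp, rank 244), Sqor (2 bp, rank 329) and Nacalpha (2 bp, rank 606), while isoQC, RpS29, bnl and p24-1 lay on the TSS and were not counted. At the outer limit, Baldspot (986 bp, rank 323) and Mhcl (999 bp, rank 1485) were inside, and osa (1009 bp, rank 1894) and CG43131 (1013 bp, rank 905) outside.

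The share of downstream peaks was lowest among the strongest peaks in each replicate. Every replicate has its own list of 30000 regions ranked by signal, from which single-gene promoter peaks were taken in the same way. Among ranks 1 to 500 the downstream share was 16.0%, 15.2% and 22.7% in replicates 1, 2 and 3 (mean 18.0 ± 4.15%, SD, n = 3). Among ranks 2001 to 3586 it was 32.1%, 34.0% and 43.5% (mean 36.5 ± 6.07%, SD, n = 3), and among ranks 10001 to 30000 it was 58.8%, 59.0% and 59.2% (mean 59.0 ± 0.168%, SD, n = 3). The last value is close to the 55.3% of positions that lie downstream, and the ranges of these 3 rank classes over replicates did not overlap. Replicate 3 had the highest share in every rank class.

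**Figure D2:**
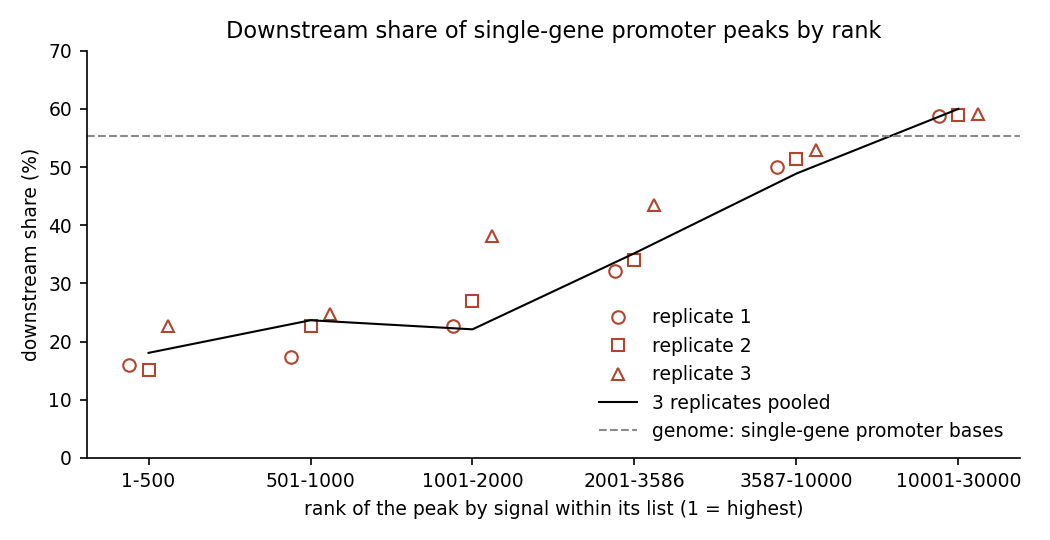
Downstream share of single-gene promoter peaks in percent (vertical axis) by rank class (horizontal axis), with open symbols for the 3 replicates, a line for the pooled list and a dashed line for the share of genome positions. All 3 replicates lie between 15.2% and 22.7% at ranks 1 to 500 and between 58.8% and 59.2% at ranks 10001 to 30000.

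Downstream summits lay in 5' untranslated exons and in introns ahead of the start codon, and seldom in coding sequence. Each summit was placed in its own gene by the first of these classes that any transcript gives: 5' UTR exon, intron before the start codon, coding sequence, other intron. By this order 174 of the 362 (48.1%, 43.0 to 53.2) lay in a 5' UTR exon and 123 (34.0%, 29.3 to 39.0) in an intron before the start codon. A further 52 (14.4%) lay in another intron, 9 (2.49%, 1.31 to 4.66) in coding sequence and 4 elsewhere. Of all positions downstream of the TSS of a single gene, 21.0% are 5' UTR exon, 17.1% intron before the start codon, 14.4% other intron and 41.0% coding sequence. The 3981 downstream peaks of the pooled list below this range of signal, outside the reproducible list, were distributed more like these positions, with 29.3% in 5' UTR exons, 14.5% in introns before the start codon and 44.5% in coding sequence. The positions come from genes with and without a peak, which differ in structure. The longest first intron had a median of 76 bp over all protein-coding genes and 2405.5 bp over genes with a downstream peak. How far gene structure sets these shares was not tested.

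**Figure D3:**
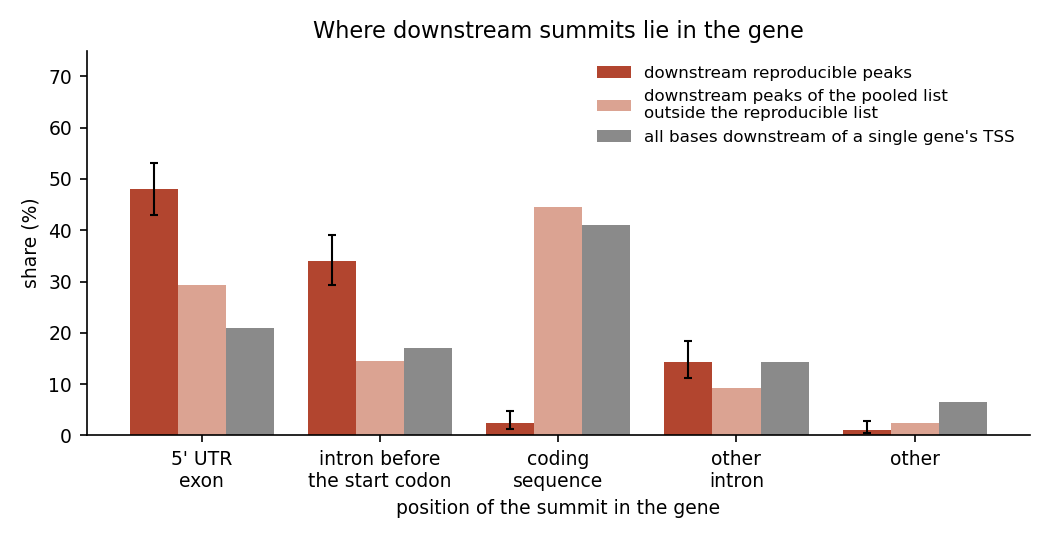
Share in percent (vertical axis) of downstream reproducible peaks (red, with 95% Wilson intervals), of downstream pooled peaks outside the reproducible list (pink) and of all downstream positions (grey) by position in the gene (horizontal axis). Coding sequence holds 2.49% of the reproducible peaks, 44.5% of the others and 41.0% of positions, which come from genes with and without a peak.

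Position and distance went together. Of the 117 summits within 100 bp, 114 lay in a 5' UTR exon, as 79.6% of positions at that distance do. Of the 145 summits beyond 500 bp, 88 lay in an intron before the start codon and 13 in a 5' UTR exon, where 20% and 5.46% of positions at that distance lie, and only 2 lay in coding sequence, which holds 44.5% of them. The 9 coding summits were at Hakai, CG44812, Ten-m, CG11811, CG15531, Dek, Gadd45, Got2 and AGO2, all named after their positions were seen. The strongest of them, at Hakai (a ubiquitin ligase gene), lay 135 bp inside the gene with a pooled signal of 206 and rank 957, and ranked 1140, 702 and 1532 in replicates 1, 2 and 3. The median GC content in the 201 bp around the summit was 57.2% for these 9, against 44.8% for 5' UTR and 37.8% for summits in introns before the start codon.

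The genes with a downstream peak were longer than protein-coding genes as a whole and more often had 3 or more start sites. Their median length was 8061.5 bp, against 6783 bp for genes with an upstream peak and 2166 bp for all protein-coding genes. Of the 338 genes, 128 (37.9%) had 3 or more TSSs, against 30.3% of genes with an upstream peak and 8.12% of all. The median number of TSSs was 2 for genes with a downstream peak, 2 for genes with an upstream peak and 1 for all. The median of each gene's longest first intron was 2405.5 bp, against 1559 bp and 76 bp. At 156 of the 362 peaks (43.1%) the nearest TSS was an internal one, against 38.4% of upstream peaks, and 69 summits also lay within 1 kb before another TSS of the same gene, so that the same site was downstream of one start and upstream of another. A gene with more TSSs offers more positions to be near, and how far this sets the figures was not tested. Another reproducible summit lay within 1 kb of 80 downstream peaks (22.1%) and 154 upstream peaks (16.1%), and 70 of the 338 genes also had an upstream single-gene peak.

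Most arms carried like shares of both kinds. Arms 2L and 2R held 71 downstream peaks each, 3L held 72, 3R held 81 and X held 67, between 18.5% and 22.4% of the total on each, against 18.1% to 24.1% of the upstream peaks. Arm 4 held 0 downstream and 8 upstream peaks. A TSS of a noncoding gene lay within 1 kb of 36 downstream summits.

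The 12 downstream peaks of highest signal spanned both distance groups, and most of them repeated in rank. The signal is the authors' own value per peak and was used only to rank or describe peaks within a list. GstE13 (FBgn0033381), a glutathione S-transferase gene, had the highest pooled signal, 1080, with a summit 69 bp inside the gene at position 9122194 of 2R, in a 5' UTR exon. Its ranks were 23, 18 and 35 of 30000 in replicates 1, 2 and 3, and its summit was 89, 68 and 58 bp downstream of the TSS in them. CG9663 (FBgn0031516) followed with a signal of 1021, and its summit lay 961 bp inside the gene at position 3302169 of 2L, in an intron before the start codon. It ranked 32, 29 and 24. mub (FBgn0262737), which encodes an RNA-binding protein with KH domains, had a signal of 791 at position 21880491 of 3L, 914 bp from an internal TSS and again in an intron before the start codon. It ranked 45, 53 and 39, with the summit 924, 948 and 918 bp downstream. The next peak, at CG31635, lay 918 bp downstream of an internal TSS and ranked 86, 58 and 63. Those 3 were the strongest of the summits over 500 bp downstream, and in no replicate did one rank below 86.

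CG4497 had a summit 7 bp inside the gene and ranked 37, 118 and 115, but in replicate 1 its summit lay 23 bp upstream of the TSS. LPCAT, which encodes a lysophospholipid acyltransferase, was bound 691 bp inside the gene, in an intron after the start codon, and ranked 84, 91 and 93. Fbl6, an F-box protein gene, ranked 77, 98 and 131 at 518 bp. Raf (FBgn0003079), the kinase between Ras and MEK, had its summit 875 bp downstream in a 5' UTR exon at position 2296341 of X, with a signal of 517 and ranks of 110, 114 and 167. At all 3 of these genes the replicate summits stayed within 50 bp of the pooled summit.

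Ets21C (FBgn0005660), an ETS transcription factor gene that responds to stress signalling through JNK, did not repeat in this way. Its summit lay 182 bp inside the gene at position 552741 of 2L, in a 5' UTR exon, with a signal of 517 and a pooled rank of 125. It ranked 4935, 156 and 36 in replicates 1, 2 and 3, and the summit was 149, 182 and 184 bp downstream. The AP-1 site printed above lies at this summit, and the GC content of the surrounding 201 bp was 59.7%. The remaining peaks of the 12 kept closer ranks. CG31612 ranked 202, 97 and 217 at 459 bp, CG2811 ranked 259, 127 and 170 at 23 bp, and Eip75B (a nuclear receptor gene induced by ecdysone) ranked 206, 144 and 204 at 51 bp.

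Over all 362 peaks, downstream peaks had lower signal than upstream peaks, by an amount that 3 replicates cannot establish. The median pooled signal was 126 downstream and 150 upstream, a ratio of 0.840, and the ratio was 0.815, 0.838 and 0.957 in replicates 1, 2 and 3 (mean 0.870 ± 0.0760, SD, n = 3). The median rank of matched peaks was 1948, 2152.5 and 1829 for downstream peaks in replicates 1, 2 and 3, against 1438.5, 1581 and 1657.5 for upstream peaks. Downstream peaks ranked lower in 3 of 3 replicates, by 417.5 ± 215 ranks on average (SD, n = 3; two-sided exact sign-flip permutation test, p = 0.25, the smallest p that 3 replicates allow, and 0.75 after Benjamini-Hochberg adjustment over 15 comparisons). The top 3586 regions of replicates 1, 2 and 3 held 55.5%, 78.5% and 81.5% of downstream peaks, against 75.6%, 86.2% and 82.0% of upstream peaks. The share was lower in 3 of 3 replicates, with a mean difference of −9.44 ± 9.91 percentage points (SD, n = 3; two-sided exact sign-flip permutation test, p = 0.25, adjusted p = 0.75) and one of −0.47 points in replicate 3. All 3 top lists held 145 downstream peaks (40.1%, 35.1 to 45.2), against 58.8% of upstream peaks and 53.8% of all reproducible peaks.

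The gap in top-list share was widest in replicate 1, whereas that in median rank, over matched peaks only, was widest in replicate 2. Peaks with no match have no rank, and almost all of them were missing from replicate 1. The median-rank gaps of the 3 replicates therefore do not cover the same peaks. Replicate 1 also lacked a match for many of the summits nearest to the TSS. No region of replicate 1 overlapped 75 of the 362 downstream peaks (20.7%), against 77 of 959 upstream peaks (8.03%) and 9.26% of all reproducible peaks, whereas replicates 2 and 3 had a match for every downstream peak. Of the 75, 44 were within 100 bp of the TSS, which is 37.6% of the 117 peaks there, against 11.4% of upstream peaks at that distance. Beyond 100 bp the unmatched share was 13.0% at 101 to 500 bp and 12.4% at 501 to 1000 bp downstream, against 5.51% and 10.6% upstream. Because replicates 2 and 3 had almost no unmatched peaks on either side, the difference over the 3 replicates had no common sign (two-sided exact sign-flip permutation test, p = 1). The lists differ in strength as well, with 2385, 5289 and 7213 regions at a −log10 q of 2 or more in replicates 1, 2 and 3, and read depth is unknown.

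For matched downstream peaks the median ranks of the replicates lay farthest apart within 100 bp of the TSS, which was not so for upstream peaks. Downstream peaks there had median ranks of 3085, 2352 and 1677 in replicates 1, 2 and 3, against 2142.5, 2084 and 1859 for upstream peaks, so they ranked lower than upstream peaks in 2 of 3 replicates (two-sided exact sign-flip permutation test, p = 0.5). At 101 to 500 bp the downstream medians were 1872, 2112.5 and 2050, against 1248, 1295 and 1582 upstream. At 501 to 1000 bp they were 1796, 1977 and 1887, against 1200, 1543.5 and 1603.5 upstream. In both of these classes downstream peaks ranked lower in 3 of 3 replicates (two-sided exact sign-flip permutation test, p = 0.25 and adjusted p = 0.75 for each).

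**Figure D4:**
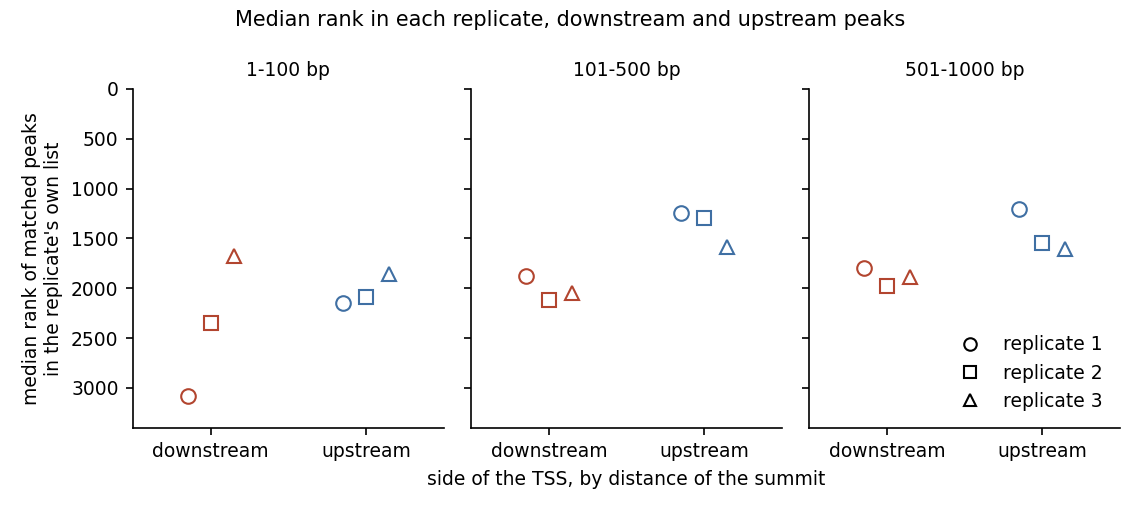
Median rank in each replicate's own list (vertical axis, rank 1 at the top) of matched downstream (red, left) and upstream (blue, right) peaks, in 3 panels by distance from the TSS, with a symbol for each replicate. Within 100 bp the downstream medians run from 1677 in replicate 3 to 3085 in replicate 1, while in the other panels each downstream median lies below the upstream one of the same replicate.

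Base composition moved with these values. Median GC content around the summit was 42.3% for downstream and 38.3% for upstream peaks, and 46.3%, 40.8% and 39.3% for downstream summits within 100 bp, from 101 to 500 bp and from 501 to 1000 bp. In classes of GC content the share with no match in replicate 1 was 8.11% of downstream against 3.55% of upstream peaks under 35% GC, and 9.21% against 8.13% from 35 to 40%. It was 32.5% against 8.92% from 40 to 45%, 21.5% against 12.8% from 45 to 50%, and 32.8% against 15.3% above 50%. The downstream share was the higher in all 5 classes, and within both sides it was lowest under 35% GC. Peaks in 5' UTR exons had no match in replicate 1 in 32.2% of cases, against 8.94% in introns before the start codon.

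**Figure D5:**
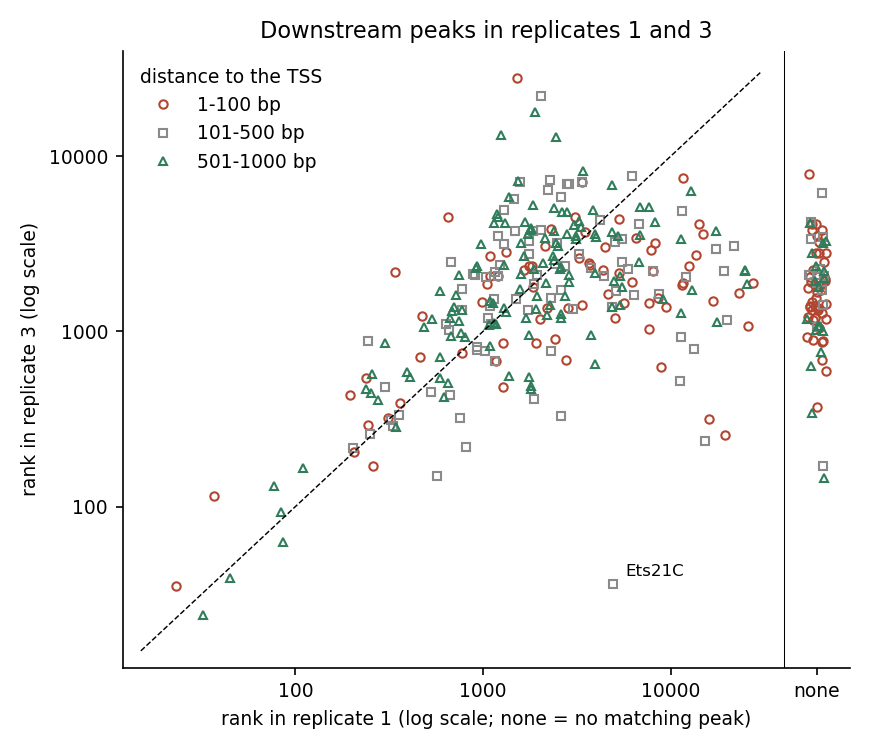
Rank of each downstream peak in replicate 3 (vertical axis, log scale) against its rank in replicate 1 (horizontal axis, log scale), with symbols by distance of the summit from the TSS, a dashed line of equal rank and, at the right edge, the 75 peaks with no match in replicate 1. Ets21C, named in the plot, ranks 4935 in replicate 1 and 36 in replicate 3, and 44 of the 75 unmatched peaks are within 100 bp of the TSS.

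Close to the TSS the side on which a summit lay often changed between replicates. Farther away it could hardly change, since the median shift of the replicate summit from the pooled one was 27, 14 and 12 bp in replicates 1, 2 and 3. Of the matched downstream peaks, 89.2%, 92.5% and 97.0% also had their own summit downstream of the same TSS in replicates 1, 2 and 3 (mean 92.9 ± 3.89%, SD, n = 3), and 308 of 362 (85.1%, 81.0 to 88.4) did so in every replicate with a match. For the 117 summits within 100 bp the shares were 60.3%, 77.8% and 92.3%, and 68 (58.1%, 49.1 to 66.7) were downstream in every matched replicate. Upstream summits within 100 bp kept their side in every matched replicate in 79.1% of cases. The 2 sides differed in distance, since 79 of the 117 downstream summits but 134 of the 273 upstream summits lay within 50 bp. How far this distance sets the shares was not tested.

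The 3 strongest downstream peaks with no match in replicate 1 were at shn itself, bchs and hts. The peak at bchs (FBgn0043362), which encodes a BEACH domain protein linked to autophagy, lay 458 bp downstream in an intron before the start codon and ranked 641 and 171 in replicates 2 and 3. The one at hts, the adducin gene, lay 804 bp downstream and ranked 1108 and 2215.

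The genes shn and Trpm carried 3 downstream peaks each, 20 genes carried 2 and 316 carried 1. At shn (FBgn0003396, position 11159086 to 11217394 of 2R, plus strand), the tagged gene, all 3 summits lay in 5' UTR exons. The strongest, 663 bp downstream at position 11198939, had a signal of 295 and ranked 524 and 145 in replicates 2 and 3, with no match in replicate 1. A peak 36 bp downstream at 11198312 ranked 1284, 9148 and 479, and its summit in replicate 1 lay 87 bp upstream. One 21 bp downstream of another TSS, at 11204650, ranked 340, 1893 and 2187, and was downstream only in replicate 3. The line carries a tagged shn, and a changed copy number of this region and binding cannot be told apart from these lists. At Trpm (FBgn0265194), a cation channel gene on the minus strand of 2R, summits lay 149, 693 and 148 bp downstream of their nearest TSSs. They ranked 1156, 487 and 677, then 721, 953 and 1620, and last 3016, 3670 and 1349, and each was downstream in all 3 replicates. No downstream single-gene peak was found at brk.

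Among 20 lists of genes, counts of genes with a downstream peak are given here beside the 2.42% of all protein-coding genes that had one and the 21.1% that had any reproducible summit within 1 kb. The lists were chosen with earlier results of these data known and were not tested. Of 24 genes of the BMP pathway, in which Schnurri acts, 3 had a downstream peak: shn, wit and Smox. The summit at wit, the type II receptor gene of BMP signalling at the synapse, lay 514 bp downstream and ranked 2381, 5897 and 2544. The summit at Smox, the Smad of the activin branch, lay 779 bp downstream and ranked 2789, 2890 and 4797. Neither was in all 3 top lists.

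In EGFR and Ras signalling, 4 of 23 genes had a downstream peak: Raf, aop, RasGAP1 and rho. The aop summit (an ETS repressor gene that the pathway inactivates) lay 975 bp downstream in an intron before the start codon and ranked 1919, 725 and 1342. At rho, whose protease releases EGFR ligands, summits lay 49 and 900 bp downstream with pooled ranks of 3254 and 3488, near the end of the reproducible list. In the JNK and dorsal closure list 4 of 19 genes had one: aop, puc, cbt and sqh. At puc, the JNK phosphatase gene, the summit 45 bp downstream had no match in replicate 1, ranked 5256 and 688 in replicates 2 and 3, and lay 4 bp upstream of the TSS in replicate 2. At cbt, a zinc finger gene, a summit 632 bp downstream ranked 2591, 2697 and 1250.

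Of 19 insulin and TOR genes, 4 had a downstream peak: Pi3K92E, Thor, Akt and InR. Pi3K92E, the catalytic subunit gene of PI3 kinase, had a summit 523 bp downstream that ranked 537, 1126 and 1182. The summit at Thor, which encodes the translation inhibitor 4E-BP, lay 30 bp downstream and ranked 8823, 1862 and 629, and in replicate 2 it was 10 bp upstream. Akt, the kinase gene, ranked 17634, 1812 and 1137, and InR, the insulin receptor gene, ranked 14202, 2960 and 4119. Of these 4, Pi3K92E alone was in all 3 top lists.

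In the Hedgehog list 2 of 13 genes had a downstream peak. At ptc, the Hedgehog receptor gene, the summit 917 bp downstream ranked 3065, 2502 and 4040, and at rdx, whose product directs degradation of the effector Ci, it had no match in replicate 1 and ranked 2218 and 3269. In the Wnt list there were 2 of 24: the kinase gene sgg (909 bp, ranks 1643, 1552 and 2686) and the co-receptor gene arr (37 bp, no match in replicate 1). JAK/STAT had 1 of 12, Stat92E, with ranks of 11376, 3213 and 923. Of the ecdysone response genes 1 of 19 had one, which was Eip75B, and of the Notch genes 0 of 23.

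Among transcription and chromatin regulators, 2 of 17 bZIP factor genes had a downstream peak, with ranks of 686, 919 and 1315 at the strongest peak of CrebB (784 bp) and 1032, 1609 and 2037 at cnc (293 bp), the Nrf2 homologue gene. Of 26 Polycomb and Trithorax genes 3 had one: ph-p, Su(z)2 and Trl, the gene of GAGA factor. Ranks were 245, 730 and 881 at ph-p (405 bp) and 1190, 2837 and 4673 at Trl (648 bp). At Su(z)2 (69 bp) the summit had no match in replicate 1 and ranked 1603 and 1164 in replicates 2 and 3. In replicate 3 it lay 27 bp upstream of the TSS. Of 20 insulator and promoter factor genes 2 had one, Trl and BEAF-32 (123 bp, ranks 1575, 4189 and 7103). None of the 20 had an upstream single-gene peak, beside 6.06% of all protein-coding genes. The list is too short to tell 0 from that share, and 6 of the 20 had a summit at a shared promoter. In the cell cycle list 2 of 23 had one: Dp, the E2F partner gene (443 bp, ranks 924, 877 and 783), and CycA (7 bp, no match in replicate 1). The CycA summit ranked 5367 and 1822 in replicates 2 and 3, and lay 1 bp upstream of the TSS in replicate 2. Gap and pair-rule genes (0 of 17), Hox genes (0 of 8) and heat shock genes (0 of 20) had none.

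Among genes of general cell machinery, the counts with a downstream single-gene peak were near the share of all genes or 0 in lists too short to tell 0 from that share. Of 93 cytoplasmic ribosomal protein genes 2 had one (2.15%, beside the 2.42% of all genes), although 65 (69.9%) had some reproducible summit within 1 kb, mostly at promoters shared with another gene (46 genes) or upstream of a single gene (17 genes). At RpL27A the summit 7 bp downstream ranked 2765, 1510 and 683 and lay upstream of the TSS in replicates 1 and 2. At RpL12 it had no match in replicate 1 and ranked 1751 and 4126. None of 75 mitochondrial ribosomal protein genes and none of 48 proteasome genes had a downstream single-gene peak, and these had 27 and 8 genes with a summit at a shared promoter. Outside this group, and in a longer list, none of 179 chemosensory receptor genes had one. Of these, 2 (1.12%) had any reproducible summit within 1 kb, against 21.1% of all genes.

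The DRE and the M1BP core were found mainly at summits near the TSS. Matches on either strand within 100 bp of the summit were counted for 15 motifs and set beside windows of the same length, 201 bp, at 14330 TSSs of genes with no reproducible promoter peak, placed 342 bp downstream, the median distance of the members, or at 37, 255 and 779 bp for the 3 distance classes. All of these windows are centred downstream of the TSS, although those at 37 bp also cover the TSS and bases just upstream of it. They are therefore not a like baseline for upstream peaks, here or for the motifs below. The DRE was at 9 of 362 downstream peaks (2.49%, 1.31 to 4.66) and 5.21% of upstream peaks. Within 100 bp of the TSS it was at 6.84% of downstream and 10.6% of upstream peaks and in 5.09% of windows without a peak. It was at 1 of 100 downstream peaks from 101 to 500 bp and at 0 of 145 beyond 500 bp, and in 0.384% and 0.300% of windows without a peak at those distances, so promoters without a peak also had it mainly near the TSS. The DRE of Atxn7 printed above lies 13 bp upstream of the TSS, although the summit is 20 bp downstream. The M1BP core was at 12 downstream peaks (3.31%, 1.91 to 5.70), all within 100 bp of the TSS, where it was at 10.3% of downstream and 8.06% of upstream peaks and in 3.65% of windows without a peak, and 0.202% and 0.112% of the windows for the 2 farther classes held it.

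Other elements of the promoter were counted in the same way. The initiator core TCAGT was at 46.2% of downstream and 31.5% of upstream peaks within 100 bp, but also in 44.9% of windows without a peak. CGGACG, a form of the pause button, was at 26 downstream peaks (7.18%, 4.95 to 10.3) and 3.23% of upstream peaks, against 5.52% of windows without a peak. Within 100 bp it was at 13.7% of downstream and 5.49% of upstream peaks and in 5.63% of windows without a peak. Median GC content there was 46.3% downstream and 41.8% upstream, and the part of GC content in this was not tested. The BEAF-32 core CGATA, which the DRE contains, was at 27.1% of downstream and 35% of upstream peaks, against 22.1% of windows without a peak. Within 100 bp it was at 34.2% of downstream and 57.1% of upstream peaks and in 34.5% of windows without a peak, close to the downstream share. TATAAA was at 19.3% of downstream and 25.7% of upstream peaks, against 15.1% of windows without a peak. Within 100 bp of the TSS this turned round, with TATAAA at 14.5% of downstream and 16.8% of upstream peaks and in 27.9% of windows without a peak.

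The silencer element was rare at these summits. The silencer element, GNCGNC and GTCTG with a spacer of 5 bases between them, was at 2 downstream peaks (0.552%, 0.152 to 1.99), at bun and CG9331, at 0.313% of upstream peaks and in 0.112% of windows without a peak. Its GC-rich part GNCGNC was at 35.1% of downstream and 29.4% of upstream peaks, against 45.2% of windows without a peak, but within 100 bp of the TSS it was at 40.2% of downstream peaks and in 39.6% of such windows. The Smad box GTCTG was at 22.4% (18.4 to 26.9) of downstream and 19.7% of upstream peaks, against 23.4%, and within 100 bp at 24.8% of downstream peaks and in 23.7% of windows. GATA sites (AGATAAG) were at 1.38% of downstream and 3.23% of upstream peaks, against 1.86% of windows. AP-1 sites (TGANTCA) were at 6.08% and 5.21%, against 3.87%, and the CRE (TGACGTCA) was at 1 downstream peak, that of Cmpk. GAGAGAGA was at 3.59% and 3.23%, against 0.900%, and the E-boxes CACGTG and CAGCTG were at 3.31% and 13.0% of downstream peaks, 2.71% and 11.4% of upstream peaks and 2.87% and 10.5% of windows without a peak. A match is a description of the letters present and does not show which protein was bound.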

How the data were processed

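Peak lists from 3 replicate ChIP-seq samples, 1 group, were analysed on dm6. Each deposited list gives, per the file columns in narrowPeak order, the summit of each peak, its signal and its q value as −log10 q, all made by the authors. The authors' replicate and pooled lists hold 30000 regions each as input to the irreproducible discovery rate (IDR) procedure, and their optimal IDR-thresholded list holds 3586 peaks, the reproducible peaks. Which peak caller, aligner and IDR cut-off were used is not given in the sources used here. Lists on dm3 were not used. No read counts were used, so depth is unknown.

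TSSs came from Ensembl release 115 (BDGP 6.54), 13945 protein-coding genes with 19607 TSSs on 6 arms, and sequence from the Release 6 assembly, within whose arm lengths all peaks lay. Python 3.11.15, pandas 2.3.3, numpy 2.4.6, scipy 1.17.1 and matplotlib 3.10.9 were used. A replicate region matched a peak when they overlapped by 1 bp or more, and the one of highest signal was taken. Regions were ranked by signal within each list, and the top 3586 of each replicate formed its top list. Positions for the genome share were sampled every 20 bp. Replicates, not peaks, were the units of the two-sided exact sign-flip tests. Wilson 95% intervals cover counting error over peaks only.

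Named genes are the 12 members of highest signal, up to 2 per gene list, the 3 strongest without a replicate 1 match, the 3 strongest over 500 bp downstream, genes with 3 members, and shn; a few others are named from counts or thresholds. Members, lists and motifs were chosen with earlier results of these data known. The calculations were checked on simulated peaks. Alternatives changed the TSS set, window, distances, signal minimum, overlap, top list size and replicates.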

Additional observations from a re-analysis of the deposited data

How the results depend on the processing

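The sign-flip tests compare both sides of the TSS within each replicate and so are paired already. Of 70 alternative values, 45 counted as unchanged. For shares and the signal ratio this meant staying within the interval or replicate spread of the reported value. For median rank (10 values) and top-list share (11 values) it meant only the same sign, since their p cannot fall below 0.05. No value reversed a direction: downstream peaks ranked lower than upstream peaks by 87.8 to 540.5 on average, and their top-list share was lower by 2.08 to 13.9 points. The downstream share was 35.5% with the 5'-most TSS of each gene alone, 22.0% with a 500 bp window and 21.3% among peaks at or above the median signal. Among peaks in both top lists that remained when 1 replicate was left out it ran from 21.0% to 25.5%, and the signal ratio from 0.842 to 0.949. The signal ratio was 0.934 at or above the median signal. The share of downstream peaks in all top lists was 46.9% with the 5'-most TSS, 81.8% at or above the median signal, 29.6% when matches needed 50% overlap, 11.9% with top lists of 1000, and 43.6% to 65.2% with 1 replicate left out, the highest without replicate 1. The share that stayed downstream in every matched replicate was 73.0% with a 500 bp window, 95.4% at 51 bp or more from the TSS, 89.5% at or above the median signal and 87.0% to 89.5% with 1 replicate left out. The 5' UTR share was 75.3%, 33.9% and 39.2%, and the DRE share 5.24%, 0.353% and 0.699%, with a 500 bp window, at 51 bp or more from the TSS and at or above the median signal. The minimum of 51 bp removes the summits at the TSS by construction, and the 500 bp window removes those farther away. Other causes were not tested. Taking the replicate region with the nearest summit, an alternative chosen after seeing the data, left 4 results within their spread. With 3 replicates the sign-flip test cannot pass 0.05.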

Other observations

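Short words in the 201 bp around the summits, chosen after all words of 7 letters had been counted, showed a further difference from promoters without a peak. ACAGTGG was at 38 of 362 downstream peaks (10.5%) and 9.80% of upstream peaks, against 2.34% of windows at promoters without a peak. It was at 13.8% of downstream summits beyond 500 bp and 4.27% of those within 100 bp. The overlapping word CACAGTG was at 10.5% of downstream and 9.59% of upstream peaks, against 2.78% of windows without a peak. By contrast, CACACAC was at 14.9% of downstream peaks, 6.26% of upstream peaks and 6.82% of windows without a peak, and CGCACAC was at 11.9%, 5.11% and 4.54%. These words were picked for their counts, so the counts are given as values with no test, and no protein is named for them. How far a difference in sequence type between summits and windows sets these counts was not tested.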
